A study of Mus musculus with 6 samples.

Results

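Extracellular and feedback inhibitors of WNT signalling were followed in the lens-forming ectoderm of mouse embryos at embryonic day 9.5, with and without receptors of type I for the BMPs (bone morphogenetic proteins). The group comprised the secreted antagonists Sfrp1, Sfrp2, Sfrp5, Dkk1, Dkk2, Dkk3 and Wif1 and the intracellular or membrane-bound feedback inhibitors Axin2, Rnf43 and Znrf3, chosen by symbol. Of these 10 genes, 9 had at least 1 probe under their symbol in the platform's annotation, 12 probes of the 46632 on the array, and Znrf3 was not analysed here. The genes listed numbered 17711 in all.

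Wild-type (WT 1 to WT 3) and knockout (KO 1 to KO 3) samples came from embryos of a mixed C57BL6 and FVB background, 3 arrays per genotype. The sample titles name the line ALK23, and per the series title the KO lens placode lacked type I BMP receptors. Not stated in the labels are the Cre line, the exons removed and whether WT embryos carried Cre. Ectoderm was laser-dissected from sections of 10 microns, 15 ng of RNA was amplified to cDNA, and the series text speaks of pooled RNA. The p-values below therefore reflect the spread over these arrays, part of which may be technical. Where 3 values of a genotype are given, they are in the order of replicates 1 to 3.

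In the canonical WNT pathway a WNT ligand engages a Frizzled receptor and the co-receptors LRP5 or LRP6, which stabilises beta-catenin and lets it act with TCF/LEF factors on target genes. Inhibitors act at several steps: SFRP proteins and WIF1 bind the ligands, DKK1 and DKK2 bind the co-receptors, AXIN2 is a scaffold of the complex that destroys beta-catenin, and RNF43 and ZNRF3 are ubiquitin ligases that clear Frizzled from the cell surface. Axin2, Rnf43 and Znrf3 are themselves induced by the pathway in many tissues and so act as negative feedback. In the head ectoderm of mouse and chick, canonical WNT signalling outside the lens field opposes lens fate, and the comparison asks whether loss of BMP receptor signalling changes the inhibitors that can restrain it.

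Upstream sequence from RefSeq (build GRCm38.p6) was matched for 7 of the 10 genes, in 8 windows because Rnf43 has 2 starts. In the 250 bases upstream of the start, the TCF/LEF core, searched as CTTTGA and CTTTGT on both strands, was present in 2 of the 8 windows, those of Dkk1 and Dkk2. It was present in 27.6% of all 32851 such windows. The GC-rich SMAD element GGCGCC, which equals its own reverse complement, was in 0 of the 8 windows and in 9.59% of all windows. Axin2 is shown with Dkk1 and Dkk2 because it is the textbook WNT target among the members and had the widest range of levels over the arrays. Capitals mark TCF/LEF core matches.
Dkk1, upstream of the start, chr19:30549497-30549746, minus strand: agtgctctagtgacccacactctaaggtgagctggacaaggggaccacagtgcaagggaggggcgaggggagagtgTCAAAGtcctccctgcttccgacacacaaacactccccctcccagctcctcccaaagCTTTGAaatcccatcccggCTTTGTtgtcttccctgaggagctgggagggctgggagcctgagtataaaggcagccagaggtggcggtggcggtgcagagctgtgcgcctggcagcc
Dkk2, upstream of the start, chr3:132085042-132085291, plus strand: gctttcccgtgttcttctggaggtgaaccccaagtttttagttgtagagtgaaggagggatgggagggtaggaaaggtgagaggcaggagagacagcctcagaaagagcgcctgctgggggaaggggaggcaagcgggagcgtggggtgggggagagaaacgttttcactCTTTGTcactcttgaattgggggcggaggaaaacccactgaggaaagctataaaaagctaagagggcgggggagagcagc
Axin2, upstream of the start, chr11:108920099-108920348, plus strand: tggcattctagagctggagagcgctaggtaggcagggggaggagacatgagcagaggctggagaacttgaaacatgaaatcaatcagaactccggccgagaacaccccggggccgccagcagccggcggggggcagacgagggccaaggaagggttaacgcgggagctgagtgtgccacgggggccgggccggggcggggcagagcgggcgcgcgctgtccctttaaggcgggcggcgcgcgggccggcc
The Dkk1 window held 3 matches, the Dkk2 window 1 and the Axin2 window 0. The absence of a match says only that these letters are not in this window.

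The arrays detected 39.6% to 45.7% of all probes, with median raw intensities of 74.5 to 90.7 and a median of 35 or 36 beads per probe. Levels are given as background-corrected, quantile-normalized log2 intensity, and a probe counted as detected on an array where the deposited detection p was below 0.05. Of the targeted receptors, Acvr1 (ALK2) averaged 7.65 ± 1.05 and 6.91 ± 0.53 in WT and KO (SD, n = 3) on its detected probe, and Bmpr1a (ALK3) 9.58 ± 0.36 and 9.70 ± 0.11 on its brighter probe. The position of these probes relative to the removed exons is unknown here, so they do not check the genotype labels. The dissected pieces also differed within each genotype. The pigment genes Pmel and Dct, markers of the pigmented part of the optic vesicle, had a mean level of 9.85 on WT 1, 9.55 on WT 3 and 9.36 on KO 1, against 5.75 on WT 2, 5.84 on KO 2 and 6.44 on KO 3. Lens placode markers ran the other way. The 9 measured of 12 averaged 7.93, 10.20 and 8.50 in WT and 8.04, 9.76 and 9.68 in KO, while Cryaa was detected on no array.

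Over all 20959 probes that were detected on at least 3 of the 6 arrays, 0 (0%) passed an adjusted p of 0.05 (limma), and 941 (4.49%) had an unadjusted p below 0.05. Of the 12 member probes 9 entered this test, for 8 genes; Dkk2, the second Dkk3 probe and the second Rnf43 probe fell below the detection filter. Taking the brightest tested probe of each gene, the KO mean was below the WT mean for 6 of the 8 genes and above it for 2, where 50.8% of all 10099 tested genes had a lower mean. The median log2 fold change (KO minus WT) was -0.22 over the 8 genes and -0.0064 over all tested genes. None of the 8 genes passed, 0 had an unadjusted p below 0.05, and 0 had every KO array below every WT array, which 4.96% of all tested genes had. The median rested in part on KO 1, without which it was -0.50, and on KO 2, without which it was -0.11, and over the 6 genes detected on all arrays it was -0.025.

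**Figure D1:**
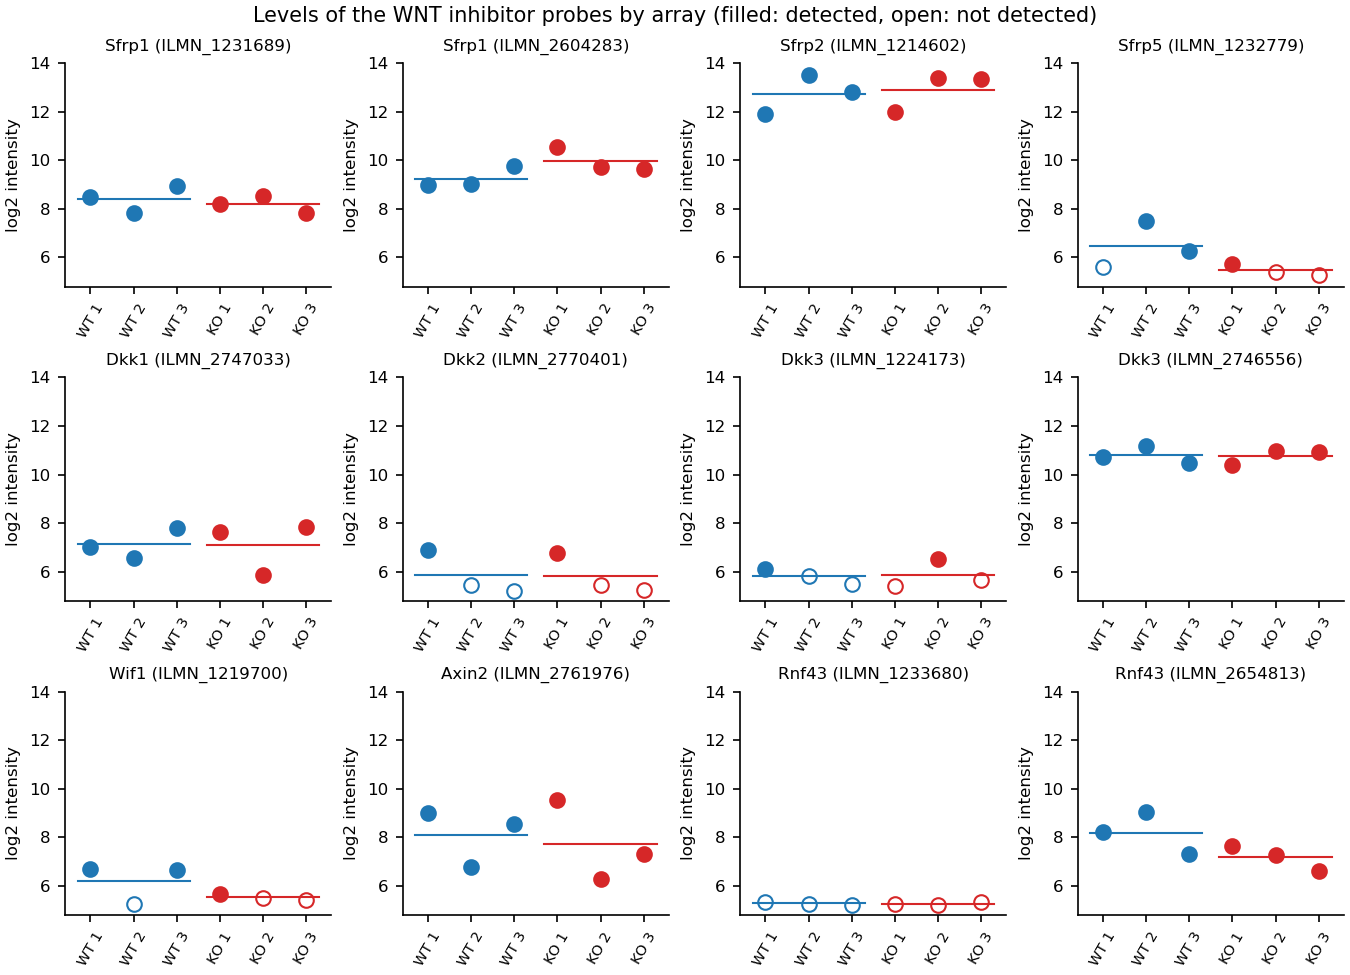
Normalized log2 intensity (vertical axis) of each of the 12 member probes on each array (horizontal axis), WT in blue and KO in red, with the mean of each genotype as a line. Filled points were detected and open points were not; in every panel whose probe was tested the arrays of the genotypes overlap, and Axin2 spans the widest range of any probe, 3.23 on the log2 scale.

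Sfrp2 gave a strong signal on every array. Its product is a secreted Frizzled-related protein, and Sfrp2 is a known marker of the early lens field in the mouse. Its level read 11.89, 13.53 and 12.83 in WT and 11.98, 13.39 and 13.35 in KO, and the raw intensities lay between 4080 (WT 1) and 12596 (KO 3). The arrays WT 1 and KO 1 were the lowest and the other arrays were high, so the difference lay within the genotypes. The log2 fold change was 0.16 (95% interval -0.90 to 1.21, adjusted p = 0.993 by limma). It turned to -0.27 without WT 1, -0.087 without KO 2 and -0.064 without KO 3. Adjusted for the pigment level as a covariate it was -0.26 (interval -0.74 to 0.23).

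Sfrp1, which encodes a second ligand-binding antagonist, was detected on all 6 arrays by both of its probes, and the probes disagreed in sign. ILMN_2604283, the brighter, read 8.97, 9.01 and 9.76 in WT and 10.56, 9.71 and 9.63 in KO. Its KO arrays lay above WT 1 and WT 2, but KO 2 and KO 3 lay just below WT 3. This gave a log2 fold change of 0.72, a 1.64-fold higher mean in KO (interval -0.0058 to 1.44, adjusted p = 0.989 by limma). It was 0.42 without KO 1 and 0.97 without WT 3. With the pigment level as a covariate it was 0.90 (interval 0.26 to 1.53, adjusted p = 0.656 by limma). ILMN_1231689 read 8.48, 7.83 and 8.94 in WT and 8.19, 8.54 and 7.85 in KO, with a log2 fold change of -0.22 (interval -1.08 to 0.63) that turned to 0.037 without WT 3. On the array KO 1, which was the highest on the first probe, the second probe was in the middle of its range, so a single direction cannot be given for Sfrp1.

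Sfrp5, the third secreted Frizzled-related gene of the group, was near the detection limit. It read 5.60, 7.52 and 6.25 in WT, detected on WT 2 and WT 3, and 5.74, 5.40 and 5.28 in KO, detected on KO 1 alone. The genotypes overlapped through WT 1, which was lower than KO 1. KO minus WT was -0.98 on the log2 scale (interval -2.03 to 0.07, adjusted p = 0.989 by limma). A single WT array carried much of it: the value was -0.45 (interval -1.05 to 0.15) without WT 2. It was -1.41 (interval -2.40 to -0.42, adjusted p = 0.862 by limma) without WT 1. Adjusted for the pigment level it was -1.21 (interval -2.20 to -0.23, adjusted p = 0.656 by limma). WT 1, KO 2 and KO 3 lay at background, where an intensity gives only an upper bound on the transcript.

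The DKK genes, whose products (other than DKK3) block the LRP co-receptors, gave 1 gene with a wide spread, 1 with a narrow one and 1 that was mostly undetected. Dkk1 was detected on all arrays and read 6.998, 6.56 and 7.81 in WT and 7.63, 5.86 and 7.85 in KO. WT 2 and KO 2 were the lowest array of their genotype, and WT 3 and KO 3 were level with each other. The log2 fold change was -0.012 (interval -1.46 to 1.44, adjusted p = 0.999 by limma), so a change beyond 2-fold in either direction lies within the interval.

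Dkk3 encodes a divergent family member that is not known to bind the LRP co-receptors as DKK1 does. Its brighter probe, ILMN_2746556, read 10.72, 11.19 and 10.48 in WT and 10.39, 10.97 and 10.92 in KO. These were the steadiest values of any member probe detected on all arrays, with a range of 0.80. The log2 fold change was -0.038 (interval -0.55 to 0.48, adjusted p = 0.995 by limma), and Dkk3 was the 1 gene of the 8 with an interval narrower than 2-fold in both directions. The second Dkk3 probe was detected on WT 1 and KO 2 alone, at 6.11 and 6.54. Dkk2, with a dual role as agonist or antagonist depending on context, was detected on WT 1 at 6.90 and on KO 1 at 6.75, and lay between 5.20 and 5.45 on the other arrays. With 1 detected array in each genotype it entered no test.

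Wif1, whose product binds WNT ligands outside the cell, was detected on the same 3 arrays that had the high pigment level. It read 6.68, 5.25 and 6.66 in WT and 5.67, 5.50 and 5.43 in KO, detected on WT 1, WT 3 and KO 1. WT 1 and WT 3 stood about 1 log2 unit above KO 1, and WT 2 was the lowest of all 6 arrays. KO minus WT was -0.66 on the log2 scale (interval -1.55 to 0.22, adjusted p = 0.989 by limma). It was -1.13 (interval -1.75 to -0.52, adjusted p = 0.75) without WT 2, -0.42 without WT 1 and -0.43 without WT 3. Adjusted for the pigment level it was -0.39 (interval -1.08 to 0.31). WT 2, KO 2 and KO 3 lay at background for Wif1, so their intensities bound the transcript from above and the difference is one of signal.

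**Figure D2:**
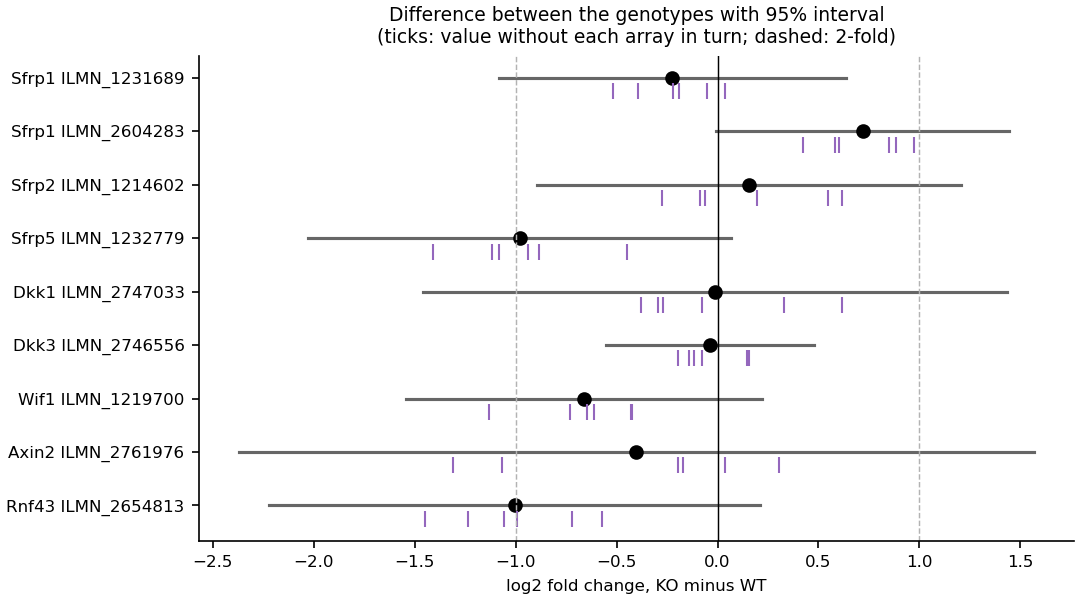
Log2 fold change of KO minus WT (horizontal axis) for each tested member probe (vertical axis), with the 95% interval of the fit as a line and the value without each array in turn as ticks; dashed lines mark a 2-fold change. Every interval contains 0, and that of Dkk3 alone, from -0.55 to 0.48, stays within the dashed lines.

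Among the feedback inhibitors, Axin2 varied most. It is the most widely used readout of canonical WNT signalling. Its level read 8.98, 6.77 and 8.56 in WT and 9.52, 6.29 and 7.29 in KO. This was a 9.38-fold range over the arrays after background correction and normalization. Its raw intensities lay between 133 (KO 2) and 788 (KO 1). The standard error over the beads of an array was 3.06% to 5.90% of the raw intensity, which includes background. WT 1, WT 3 and KO 1 were high and WT 2, KO 2 and KO 3 were low, so each genotype held both high and low arrays. The log2 fold change was -0.40 (interval -2.37 to 1.57, adjusted p = 0.992 by limma). It was -1.31 without KO 1, -1.07 without WT 2, 0.036 without WT 1 and 0.30 without KO 2.

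The arrays with high Axin2 were those with high Pmel and Dct and with low lens markers. Periocular mesenchyme and neural crest markers (6 measured of 10 listed) averaged 7.44 to 8.70 over the WT arrays and 7.52 to 8.47 over the KO arrays and were also highest on WT 1, WT 3 and KO 1. The same held for the endothelium list, and for the optic vesicle list, which itself contains Pmel and Dct and so repeats part of the pigment level. The optic vesicle list was not computed without these genes. Optic vesicle, retina and pigment epithelium markers (8 measured of 13 listed) averaged 8.01, 6.04 and 8.53 in WT and 7.67, 6.52 and 7.34 in KO, with Tyr and Hes5 detected on no array. Endothelial markers (5 measured of 7 listed) averaged 7.82, 6.20 and 6.87 in WT and 8.03, 6.33 and 6.28 in KO, with Tek detected on no array. Blood markers (5 measured of 8 listed) averaged 9.68, 8.71 and 8.33 in WT and 9.07, 8.22 and 7.88 in KO, with Gata1 detected on no array. The blood list did not follow the same arrays, as WT 3 was its lowest WT array. Surface ectoderm markers (8 of 8 measured) averaged 8.97 to 9.37 over WT and 9.28 to 9.60 over KO. Adjusted for the pigment level, the Axin2 difference was 0.36 with an interval from -0.61 to 1.34, of the opposite sign and narrower than without it. The pigment level came from the same few arrays and was high on WT 1, WT 3 and KO 1, so it was not balanced between the genotypes. The adjusted value therefore cannot separate genotype from tissue content. The part of the other tissues in the Axin2 levels was not tested further, and fewer cells of a type cannot be told apart from less RNA per cell in dissected pieces.

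**Figure D3:**
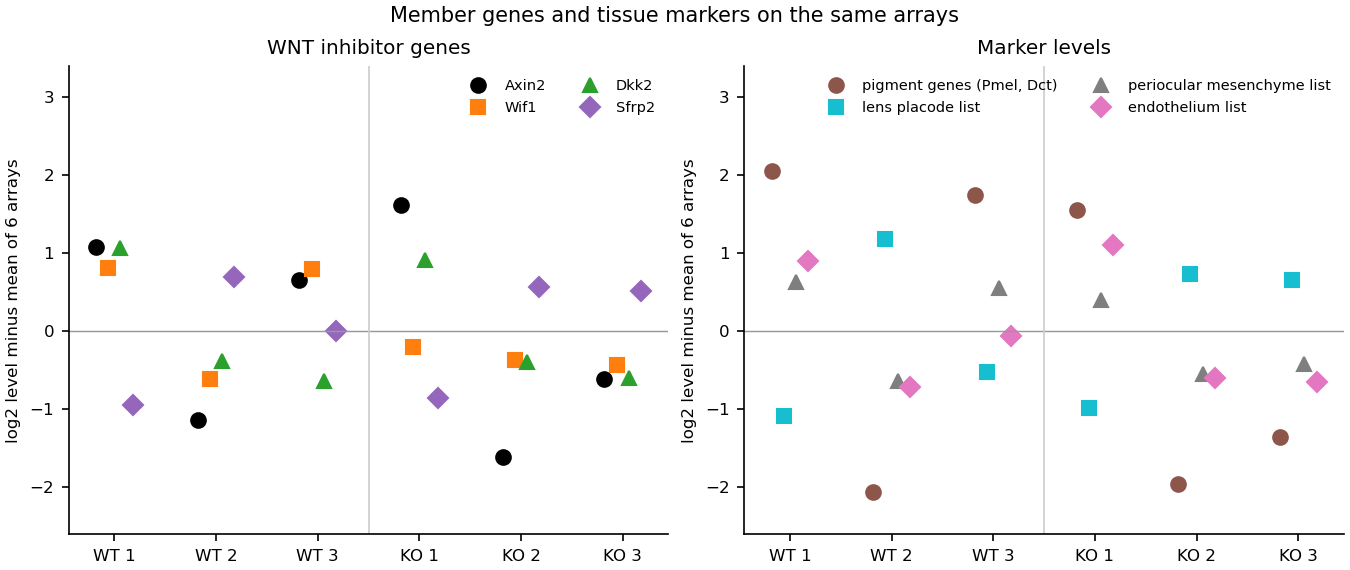
Left, log2 levels of Axin2, Wif1, Dkk2 and Sfrp2, and right, the levels of the pigment genes and of 3 marker lists (mean over measured genes), each minus its own mean over the 6 arrays (vertical axis), by array (horizontal axis). Axin2 and the pigment genes are above their mean on WT 1, WT 3 and KO 1 and below it on WT 2, KO 2 and KO 3; Sfrp2 is lowest on WT 1 and KO 1.

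The genes with the profile closest to Axin2 over the 6 arrays were Crym, Ets2 and Slc66a2, by the root mean squared difference of log2 levels after each gene's mean was removed. Crym, which encodes the ketimine reductase mu-crystallin, differed by 0.19, Ets2, an ETS transcription factor, by 0.32 and Slc66a2 by 0.35. Crym read 10.81, 8.85 and 10.61 in WT and 11.32, 8.63 and 9.15 in KO. That it was high and low on the same arrays as Axin2 follows from how it was picked, as the closest profile among all tested named genes. The likeness is therefore a description, and its cause was not tested.

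Rnf43, the ubiquitin ligase that removes Frizzled receptors, had the lowest log2 fold change of the group. ILMN_2654813 read 8.20, 9.04 and 7.29 in WT and 7.64, 7.28 and 6.60 in KO. WT 1 and WT 2 lay above all KO arrays, and WT 3 lay below KO 1. The KO minus WT difference was -1.01 on the log2 scale, a 2.01-fold lower mean in KO (interval -2.22 to 0.21, adjusted p = 0.989 by limma). It was -0.57 without WT 2 and -1.45 without WT 3, and -1.14 when adjusted for the pigment level. The high and low arrays of Rnf43 were not those of Axin2: WT 2 was the highest for Rnf43 and among the lowest for Axin2. The second Rnf43 probe was detected on no array, with levels from 5.21 to 5.35.

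The error over the beads of an array leaves out dissection, amplification and pooling. Over all 12 member probes and 6 arrays, the standard error of the bead mean was 1.89% to 8.14% of the deposited intensity, with 21 to 59 beads each. Between arrays, the 7 member probes detected everywhere spanned 1.74-fold to 9.38-fold after background correction and normalization. Their SD within a genotype was 0.32 to 1.65 on the log2 scale.

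The rest of the pathway was grouped by role. Of 16 other WNT inhibitors, 10 were measured, with the KO mean above WT for 3 and below it for 7. None (0) passed, and the median log2 fold change was -0.16. It was -0.035 with 5 of 10 above WT when WT 1 was left out, -0.30 with 2 above without KO 1, and 0.22 with 6 above when adjusted for the pigment level. Kremen2, a co-receptor for DKK proteins, had -1.24 (interval -4.88 to 2.41), with 10.86, 5.89 and 9.72 in WT and 11.05, 5.71 and 6.001 in KO, high again on WT 1, WT 3 and KO 1. Draxin, a secreted antagonist and axon guidance factor, had -1.11 (interval -2.53 to 0.31), with WT 1 at 8.26 and the other arrays between 5.25 and 6.22. Of the 10 measured, 1 gene had an unadjusted p below 0.05 by limma, as did 4.49% of all tested probes. This was Sostdc1, singled out after its values were seen, which encodes an inhibitor of both BMP and WNT signalling. Sostdc1 read 8.76, 9.49 and 9.18 in WT and 9.40, 10.43 and 9.74 in KO, with a log2 fold change of 0.71 (interval 0.01 to 1.42, limma adjusted p = 0.989), and WT 2 lay above KO 1.

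Ligands, receptors and signal transducers also gave 0 genes past the threshold. Of 21 genes for WNT ligands and their secretion, 11 were measured, 5 higher and 6 lower in KO, with a median of -0.0082. This balance rested on single arrays: 8 of the 11 were higher with a median of 0.25 without WT 1, 2 with -0.28 without KO 1, and 4 with -0.37 without WT 2. Without KO 2 and without KO 3, 7 were higher, with medians of 0.027 and 0.11, and without WT 3 the median was -0.078. Adjusted for the pigment level, 9 were higher, with a median of 0.22. Wnt10b had -0.49 (interval -2.20 to 1.23), Wls, the carrier that WNT proteins need for secretion, 0.34 (interval -1.08 to 1.77) and Wnt2b -0.13 (interval -1.33 to 1.07). Of 22 receptors and R-spondins, 17 were measured, 10 higher and 7 lower, with a median of 0.07 that turned to -0.042 without WT 1 and -0.016 without KO 1. The co-receptor Lrp5 had -1.02 (interval -2.37 to 0.33) and the Frizzled gene Fzd6 -0.72 (interval -2.12 to 0.69). Rspo3, an agonist that counters RNF43 and ZNRF3, was detected on 1 array of each genotype and entered no test.

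Of 20 transducers, 16 were measured, 11 higher and 5 lower, with a median of 0.12. This median was 0.034 without KO 1 and 0.20 without KO 2. With the mean over the tested probes of a gene in place of the brightest, 9 of the 16 were higher and the median was 0.061. In 1 of the 16, Bcl9, every KO array lay below every WT array, as in 4.96% of all tested genes. In 2, Ctnnb1 and Tnks2, every KO array lay above, as in 4.65% of all. Bcl9, a co-activator of beta-catenin, had -0.47 (interval -0.87 to -0.07, limma adjusted p = 0.989), with KO arrays from 9.42 to 9.78 and WT arrays from 9.99 to 10.07. That is its brightest probe, and its other tested probes gave 0.84 and -0.21. Tcf7l2, a TCF factor, had 0.45 (interval -0.46 to 1.36) on its brightest probe and -0.10 and 0.35 on the other tested probes. Ctnnb1, which encodes beta-catenin, had 0.15 (interval -0.04 to 0.34) on its brightest probe, with WT from 12.98 to 13.09 and KO from 13.11 to 13.26. Its other probes gave -0.28 and 0.53, so the probes differed in sign. Tnks2, which encodes a tankyrase that marks AXIN for destruction, was named after its values were seen and had 0.24 (interval -0.02 to 0.51).

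Of 18 WNT targets, 13 were measured, with the KO mean above WT for 2 and below it for 11. None (0) passed, and the median was -0.18. Without KO 2, 7 of the 13 were above WT and the median was 0.0070; without WT 2, 5 were above and it was -0.19, and without KO 1 it was -0.27. The largest differences were those of Bmp4, a BMP ligand, at -0.74 (interval -2.32 to 0.84) and Twist1, a mesenchymal factor, at -0.69 (interval -2.17 to 0.79). Lef1, both transducer and target, read 8.22, 7.58 and 8.64 in WT and 9.09, 6.87 and 7.78 in KO, with a log2 fold change of -0.23 (interval -1.55 to 1.08). Lef1 was thus high on WT 1, WT 3 and KO 1, as Axin2 was. Sp5, a direct target in many tissues, read 5.57, 8.21 and 7.05 in WT and 6.23, 7.23 and 5.84 in KO, with -0.51 (interval -2.11 to 1.09), and was highest on WT 2, where Axin2 was low. Adjusted for the pigment level, 7 of the 13 targets had a positive difference and the median was 0.0095. Twist1 belongs to the periocular mesenchyme list as well as to the targets. The target list also holds Id2, from a BMP-induced gene family, so it is not specific to WNT signalling.

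**Figure D4:**
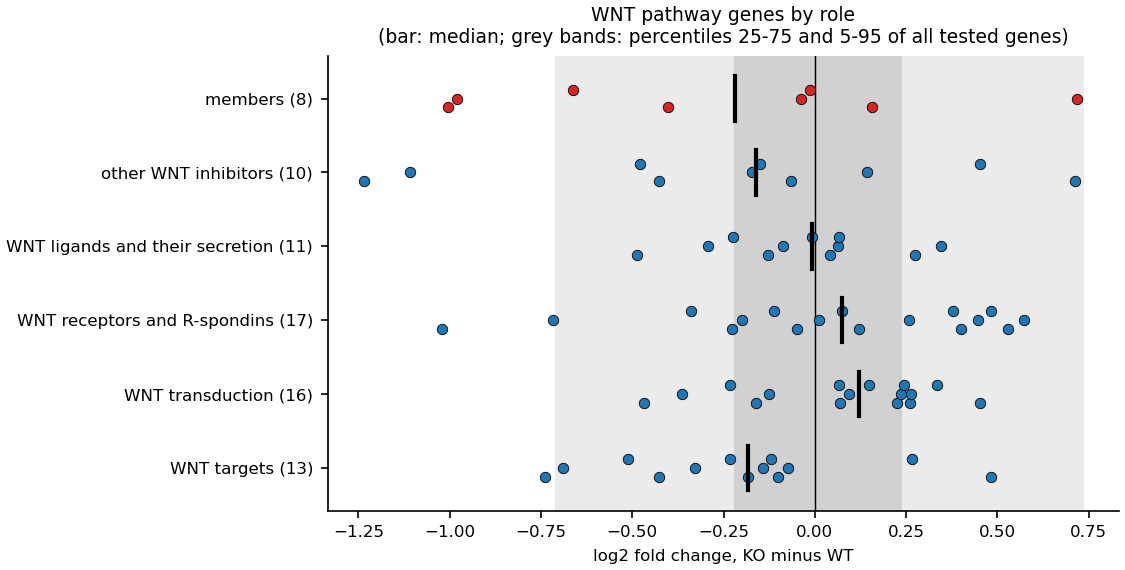
Log2 fold change of KO minus WT (horizontal axis) for each measured gene of the member group (red) and of 5 lists of other WNT pathway genes (blue), with the number of genes in parentheses and the median as a bar. Grey bands run between the 25th and 75th and between the 5th and 95th percentiles of all 10099 tested genes, from -0.71 to 0.73 for the wider band, and the list medians lie between -0.22 and 0.12.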

How the data were processed

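Gene expression was measured on Illumina BeadChips in 3 WT and 3 KO samples. The deposited table held, per probe and array, a mean bead intensity, a bead count, a standard error and a p-value for detection (per the file headers), and its intensity was linear and not background-subtracted. The series matrix held intensity values that the authors had processed by a method the labels do not state. The submitters' processing notes name GenomeStudio. Intensities were corrected by normexp with controls inferred from the detection p-values (offset 16), quantile normalized and log2 transformed with neqc (limma 3.58.1 in R 4.3.3). The test took probes detected at p below 0.05 on 3 or more arrays (lmFit, eBayes with a trend, Benjamini-Hochberg over 20959 probes, threshold 0.05, two-sided). The code was run on simulated data with independent noise per probe and large added differences. That run did not include tissue differences shared by the probes of an array, so it does not speak to them. Adjusted p-values are from limma. Symbols came from the platform annotation, with 29976 probes having 1 symbol, 10 several and 16646 unnamed. The members and lists were chosen with earlier results of these data known. Named genes were all members, the 2 largest differences of each list, Lef1, Sp5, Wnt2b, Rspo3 and Ctnnb1, and the 3 closest profiles to the most variable member, with Acvr1 and Bmpr1a as the targeted genes. Sostdc1 and Tnks2 fall outside that rule and were named after their values were seen.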

Additional observations from a re-analysis of the deposited data

How the results depend on the processing

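No member passed under any alternative: all 140 recomputed differences of the 9 tested probes missed the threshold, and 125 kept their sign. The other filters, the fit without a variance trend and the replicate block leave each difference unchanged, so the sign was fixed there. The count of probes past the threshold was 0 under every alternative, with a lowest adjusted p of 0.258 (without WT 2). Sfrp5, Wif1, Rnf43 and the brighter Sfrp1 probe kept their sign throughout. Dkk1 turned to 0.023 with an offset of 50 and 0.28 with the pigment covariate, and Dkk3 to 0.14 with array weights. With the pigment covariate, Sfrp2 turned to -0.26 and Axin2 to 0.36. Without single arrays, the values ran from -0.52 to 0.037 for the dimmer Sfrp1 probe, -0.27 to 0.62 for Sfrp2, -0.38 to 0.62 for Dkk1, -0.20 to 0.16 for Dkk3 and -1.31 to 0.30 for Axin2. The median over the members was -0.045 with no filter, -0.025 with detection on all 6 arrays or a detection p below 0.01 (fewer genes tested), and -0.51 with array weights, and ran from -0.50 to -0.11 without single arrays. For the other inhibitors it was -0.41 with array weights and 0.22 with the pigment covariate, and without single arrays it ran from 0.034 to 0.20 for the transducers, -0.37 to 0.25 for the ligands and -0.27 to 0.0070 for the targets. The cause of these shifts was not tested. The sample titles do not say whether the replicate numbers pair the samples. Deviations of same-numbered arrays correlated at 0.11, 0.14 and -0.01 over the probes, and those of different-numbered arrays at -0.19 to 0.13. With 1 array of each genotype per number, the replicate block cannot change the differences, only their intervals. It gave 0 probes past the threshold. The intervals were wider for both Sfrp1 probes and narrower for every other tested member probe, among them Axin2 (-1.47 to 0.67) and Sfrp2 (-0.15 to 0.46). Whether the samples are paired was left undecided. Dim probes such as Sfrp5 and Wif1 are limited by signal over background, and their values shrink with a larger offset (-0.67 and -0.45 with 50).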
